A study of Mus musculus with 20 samples.

Results

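Abdominal aortas of Rab22a knockout mice were compared with those of wild type mice after 14 days of angiotensin II (AngII) at 500 ng/kg/min. The libraries whose group label reads knockout or wild type with AngII were taken, 5 of each, which makes 10 of the 20 libraries of the series. The other 10 libraries, 5 knockout and 5 wild type aortas given saline, served as a reference for the spread between libraries and for the effect of the genotype without the hormone. All mice were C57BL/6. The labels give neither the construction of the knockout nor sex, age or batch, and they name 1 tissue sample per library without saying whether animals were pooled. The libraries were made from total RNA after removal of ribosomal RNA, so that unprocessed and noncoding transcripts are included beside messenger RNA.

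Rab22a is a small GTPase of the Rab5 subfamily that acts on early endosomes and in the return of internalized membrane proteins to the cell surface. AngII acts on smooth muscle through the type 1 receptor, a G protein-coupled receptor that is taken up into endosomes after activation and is then recycled or degraded. In the aorta, weeks of AngII are known to bring remodelling of the wall, with deposition of extracellular matrix, changes in contractile smooth muscle and immigration of leukocytes. By the title of the series, the work was about this receptor's recycling and the hypertension that AngII causes.

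The targeted gene was examined first, because it checks the genotype labels. The coding transcript of Rab22a, Rab22a-201, contains an exon 3 of 82 bases, and another annotated transcript, Rab22a-203, lacks it.

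All 82 bases of exon 3 are coding, and 82 leaves a remainder of 1 on division by 3. Read from the annotated start, the transcript with exon 3 has 194 codons before its stop, and the one without it meets a stop after 68 codons, of which 38 precede the end of exon 2. Under AngII, Rab22a-201 stood at 6.402, 1.87, 7.24, 5.69 and 8.62 FPKM (counts scaled by transcript length and by sequencing depth) in wild type replicates 1 to 5. In the knockout replicates 1 to 5 it stood at 0.00186, 0.00558, 0.00187, 0.00563 and 0.00560 FPKM. No knockout library therefore held more than traces of the transcript that carries exon 3. Rab22a-203 ran the other way, at 8.74, 8.79, 8.995, 9.25 and 10.2 FPKM in the knockout and 1.58, 0.514, 2.39, 3.18 and 1.43 FPKM in the wild type libraries (exact permutation test, two-sided, p = 0.00794, the smallest possible for 5 against 5, adjusted p = 0.0159 over 4 tests). The genotype labels of all 10 libraries were thus matched by the transcript. The sum over the gene did not separate the genotypes, at 9.24 ± 0.596 FPKM in the knockout and 7.85 ± 3.01 in the wild type (SD, n = 5 each, exact permutation p = 0.429), and its lowest value was 2.65 FPKM in wild type replicate 2.

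**Figure D1:**
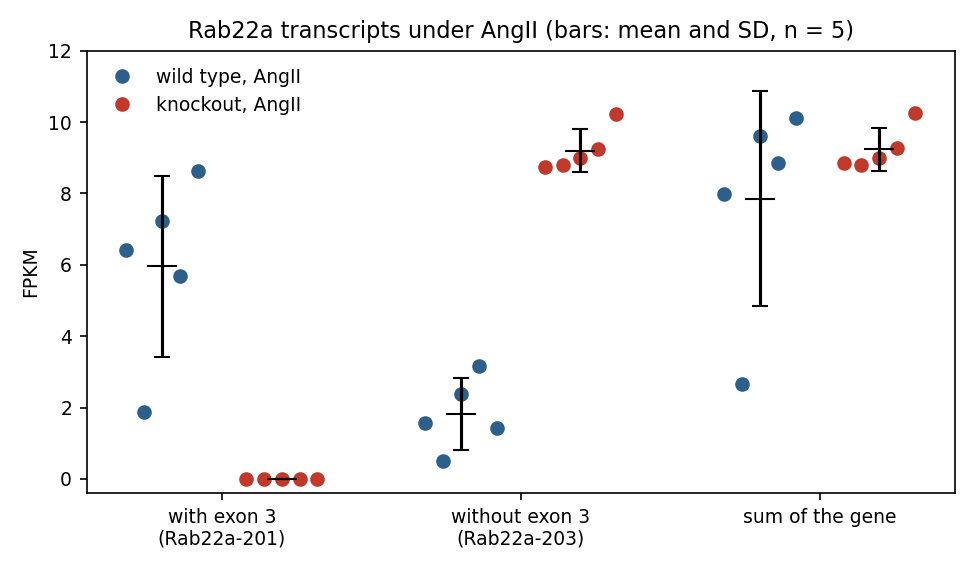
FPKM (linear axis) of the Rab22a transcript with exon 3, of the transcript without it and of their gene in the 5 wild type (blue) and 5 knockout (red) AngII libraries, with mean and SD. The transcript with exon 3 is at the bottom of the axis in all 5 knockout libraries, the transcript without it lies above 8 FPKM there and below 4 FPKM in the wild type, and the sums overlap.

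The FPKM values of these 10 libraries corresponded to totals of about 68700000 to 77400000 reads. Smooth muscle and endothelial genes that define an artery were present in each, with the smooth muscle myosin gene Myh11 at 196 to 393 FPKM, smooth muscle actin, Acta2, at 1101 to 3128 FPKM and the endothelial gene Pecam1 at 42.5 to 103 FPKM. Before any gene was tested, 2 properties of the libraries had to be dealt with. Transcript length was the first. Values as deposited differed with length, from a median log2 difference (knockout minus wild type) of -0.45 among the shortest genes, with a median length of 379 bases, to 0.24 among the longest, with a median of 7646 bases. The slope of a library's values on log2 length was 0.078 ± 0.062 in the knockout and -0.093 ± 0.061 in the wild type (SD, n = 5 each, exact permutation p = 0.0159, adjusted p = 0.0508 over 16 measures). The limma tests of genes and transcripts below therefore use values from which each library's trend on length was removed, unless stated otherwise. A gene is thus compared with others of like length. Limma-voom fits, composition measures, mean levels of gene lists and printed FPKM values keep that trend. Removal of the trend moved the median difference of all genes from -0.10 to 0.0048 on the log2 scale. The second was leukocyte content. Knockout AngII replicates 1 and 2 nearly lacked lymphocyte transcripts, and values without these libraries are given where they matter. Saline knockout replicates 2, 4 and 5 had low levels of T and NK cell genes too, at 1.04, 1.39 and 0.68 (mean log2(FPKM + 1)). Saline knockout replicates 1 and 3 stood at 4.39 and 4.91, and the saline wild type libraries at 1.89 to 4.05.

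**Figure D2:**
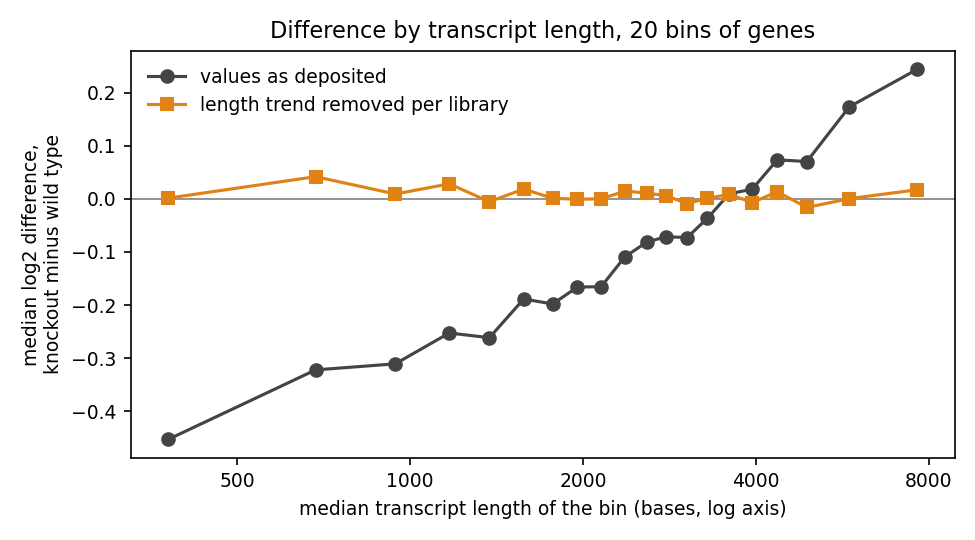
Median log2 difference between knockout and wild type AngII libraries in 20 bins of genes by transcript length (log axis), for the values as deposited (grey) and after removal of each library's length trend (orange). The grey line climbs from -0.45 to 0.24 and the orange line stays near 0.

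Gene by gene, 33 of 15010 genes tested differed between knockout and wild type aortas under AngII, 15 higher and 18 lower in the knockout (limma on log2(FPKM + 1), Benjamini-Hochberg adjusted p under 0.05). These were 0.220% of genes tested, or 0.0999% higher and 0.120% lower. They were 25 protein-coding genes, 3 long noncoding RNAs, 3 processed pseudogenes, 1 small Cajal body RNA and 1 small nucleolar RNA. At an unadjusted p under 0.05 1083 genes were higher (7.22%) and 863 lower (5.75%). Among the 33 genes, the FPKM values of the genotypes did not overlap in 30, against 5.21% of all genes. The 33 were chosen by their difference in the same libraries, so this follows largely from the choice. Without removal of the length trend, 275 genes passed (1.83%), 59 higher (0.393%) and 216 lower (1.44%), and 26 of the 33 were among them. The 7 that passed only with the removal were Banp, Gm18541, Gm22009, Hoxc6, Nsmce3, Tlnrd1 and Xpa. The share of calls that were higher in the knockout moved with this choice, from 45.5% to 21.5%, while each of the 33 kept its sign.

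Which genes passed depended on the libraries included. Whichever 1 of the 10 libraries was left out, Aff4, Gm10800, Ist1, Manea, Prkcsh and Snora24 passed each time. Those fits kept the saline libraries. With the 10 AngII libraries alone, Snora24 passed (limma adjusted p = 0.0425), and the other genes just named did not (limma adjusted p from 0.0930 to 0.127). In contrast, 22 of the 33 genes passed in 5 or fewer of the 10 fits with 1 library left out. Among these, Clock, Dpy19l4, Gk5, Hoxc6, Mir17hg and Sema6b passed in 2, and Gpnmb, Snhg20 and Tlnrd1 in 3. Without knockout replicates 1 and 2, 0 genes passed by limma and 0 by limma-voom run on reads recovered from the FPKM values, with 1269 genes (8.45%) at an unadjusted p under 0.05 by limma. All 33 kept their sign and an unadjusted p under 0.05 there, with adjusted p from 0.0983 to 0.282 and a median size of 0.955 times that with all libraries. The 33 had been chosen by a fit that held the same libraries, so their kept sign and size are no separate evidence.

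**Figure D3:**
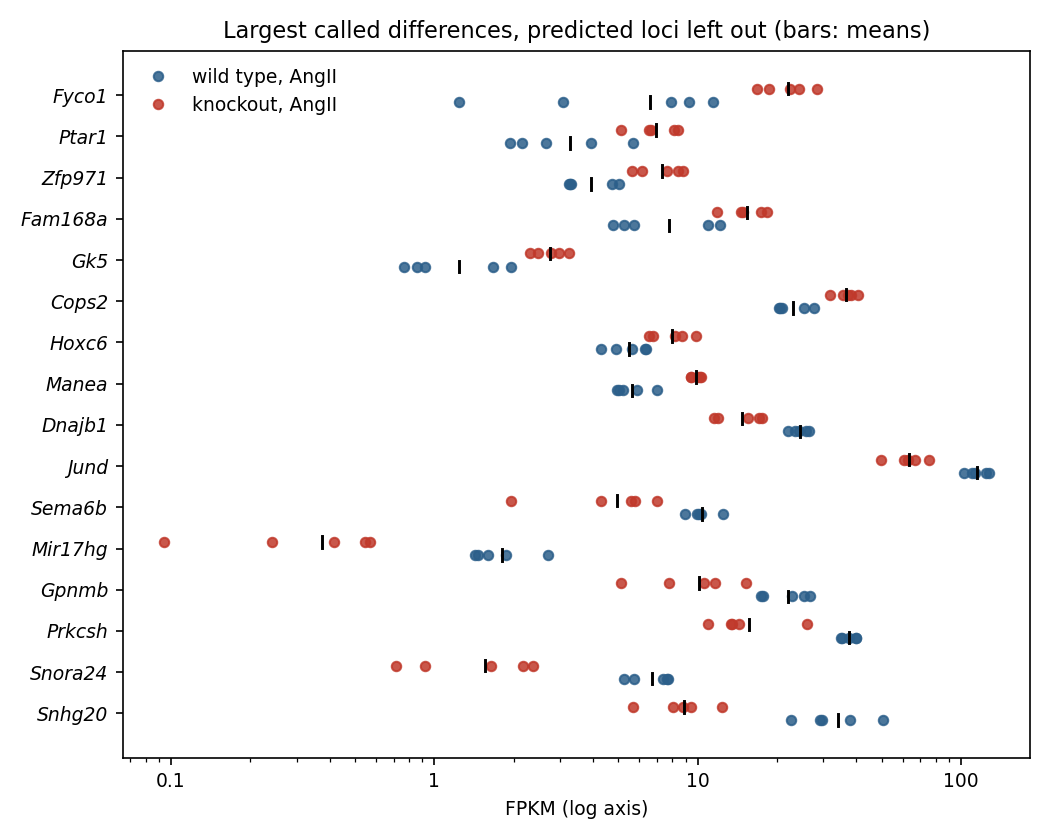
FPKM (log axis) of the 8 called genes with the largest increases and the 8 with the largest decreases, predicted loci left out, in the 5 wild type (blue) and 5 knockout (red) AngII libraries, with means as bars. From Fyco1 at the top, higher in the knockout, to Snhg20 at the bottom, lower in the knockout, the genotypes do not overlap except in Ptar1 and Fam168a.

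Called genes of the secretory and endosomal routes moved in both directions. Prkcsh, which encodes the regulatory subunit of glucosidase II, an enzyme that trims glycans of newly made proteins in the endoplasmic reticulum, lies on chromosome 9 from 22002806 to 22014222. It stood at 13.4, 10.9, 14.4, 26.0 and 13.5 FPKM in knockout replicates 1 to 5 and at 37.6, 35.4, 40.1, 34.9 and 40.1 FPKM in wild type replicates 1 to 5. All knockout libraries lay below all wild type libraries, with replicate 4 apart from the other knockouts. The log2 difference was -1.11 ± 0.16 (SE, limma adjusted p = 0.00905). Under saline the means were 29.0 and 34.7 FPKM, a difference of -0.17 ± 0.16.

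The Prkcsh difference lay in 1 of 2 transcripts. Prkcsh-202 was at 0.349, 0.396, 0.364, 3.50 and 0.579 FPKM in the knockout and at 24.9, 20.1, 27.7, 11.97 and 24.95 FPKM in the wild type libraries (log2 difference -3.46 ± 0.57, limma adjusted p = 0.0359 over 25362 transcripts). Prkcsh-201 was at 14.1 ± 4.68 and 15.1 ± 4.27 FPKM (SD, n = 5 each), which overlapped. Both have 18 exons, and apart from their ends they differ only at the end of exon 11. There Prkcsh-202 carries 21 bases that Prkcsh-201 lacks.

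All 21 bases are coding. Under saline, Prkcsh-202 stood at 9.27 FPKM in the knockout and 20.8 FPKM in the wild type. The split of reads between transcripts that share nearly all exons rests on the few reads that cover such places, and the program that made it is not given in the sources used here.

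Manea, a Golgi endomannosidase that acts on glycans which escaped glucosidase trimming, was higher in the knockout. Its values were 9.39, 10.3, 9.99, 9.41 and 10.2 FPKM in the knockout and 4.93, 5.02, 5.91, 5.18 and 6.99 FPKM in the wild type. The groups stood apart with little spread among the knockouts, and the log2 difference was 0.65 ± 0.09 (limma adjusted p = 0.00905). Under saline it was 0.48 ± 0.09. Ist1, a protein of the ESCRT-III membrane scission machinery, was lower, at 9.47 ± 1.68 against 15.7 ± 1.62 FPKM (SD, n = 5 each, log2 difference -0.62 ± 0.09, limma adjusted p = 0.00954). Its reads lay almost wholly in transcripts that are not annotated as coding, with the retained intron transcript Ist1-204 at 5.36 and 7.97 FPKM and Ist1-202 at 3.14 and 6.49 FPKM, while the coding Ist1-201 stood at 0.102 and 0.0777 FPKM.

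Fyco1 links late endosomes and autophagosomes to the motors that carry them along microtubules. It had the largest increase, from 7.92, 1.24, 9.28, 3.09 and 11.5 FPKM in the wild type to 22.4, 28.4, 18.6, 16.8 and 24.2 FPKM in the knockout (log2 difference 1.74 ± 0.33, limma adjusted p = 0.0351). The wild type AngII libraries were the low ones. Under saline, the means were 19.95 FPKM in the knockout and 19.2 FPKM in the wild type, a difference of -0.02 ± 0.33. The interaction of genotype and treatment was 1.76 ± 0.46 (unadjusted p = 0.00131), and limma passed no gene for that interaction. Both coding transcripts of Fyco1 had the difference, with Fyco1-204 at 12.5 and 3.50 FPKM and Fyco1-202 at 9.45 and 3.01 FPKM. Fyco1 overlaps Cxcr6, a chemokine receptor gene of lymphocytes on the other strand, at 2.64 ± 2.75 FPKM in the knockout and 4.07 ± 1.44 in the wild type. Atl3, a GTPase that shapes the endoplasmic reticulum, did not overlap between genotypes (42.6 ± 2.86 and 26.4 ± 3.84 FPKM) and missed the threshold with a limma adjusted p of 0.0505.

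Aff4, Clock, Hoxc6 and Zfp971 were among the called genes that were higher in the knockout. Aff4, a scaffold of the super elongation complex that releases paused RNA polymerase II, stood at 20.5, 19.5, 27.1, 22.8 and 26.0 FPKM in the knockout and 10.7, 10.7, 17.9, 11.3 and 16.4 FPKM in the wild type. The highest wild type value was below the lowest knockout value, and the log2 difference was 0.53 ± 0.08 (limma adjusted p = 0.0105). Clock, the DNA-binding activator of the circadian oscillator, was at 8.99 ± 2.21 and 4.64 ± 1.51 FPKM (0.61 ± 0.12, limma adjusted p = 0.0454). Hoxc6, a homeobox factor of body position, was at 8.02 ± 1.41 and 5.49 ± 0.902 FPKM (0.74 ± 0.15, limma adjusted p = 0.0441). Zfp971, a zinc finger gene on chromosome 2 from 178023284 to 178034022, was at 7.34 ± 1.399 and 3.92 ± 0.892 FPKM (1.04 ± 0.17, limma adjusted p = 0.0161). Rab22a lies on the same chromosome, from 173659760 to 173707343.

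Jund, the AP-1 subunit, was measured at 49.9, 63.1, 66.8, 61.0 and 75.5 FPKM in the knockout and 125, 127, 113, 110 and 103 FPKM in the wild type. The FPKM values of the groups stood apart, with a log2 difference of -0.66 ± 0.13 (limma adjusted p = 0.0424). Jund passed in only 1 of the 10 fits with 1 library left out, as did Banp and Xpa, and other called genes passed in few, as given above. Dnajb1, the HSP40 cochaperone of HSP70, stood at 14.7 ± 2.81 and 24.4 ± 1.81 FPKM (-0.64 ± 0.11, limma adjusted p = 0.0161). Under saline these genes were lower in the knockout by smaller amounts, -0.15 ± 0.13 for Jund and -0.26 ± 0.11 for Dnajb1.

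Other called coding genes were higher in the knockout. Cops2, a subunit of the COP9 signalosome that removes Nedd8 from cullins, had 36.7 ± 3.32 and 23.0 ± 3.31 FPKM (log2 difference 0.75 ± 0.12, limma adjusted p = 0.0108). Ptar1, a prenyltransferase subunit, had 6.96 ± 1.35 and 3.27 ± 1.56 FPKM (1.16 ± 0.22), and Fam168a 15.4 ± 2.53 and 7.78 ± 3.49 FPKM (0.92 ± 0.18), and both had values that overlapped between the genotypes. Gk5, a glycerol kinase gene, had 2.76 ± 0.372 and 1.24 ± 0.543 FPKM. Its saline means, 2.34 and 2.37 FPKM, were close to the knockout AngII mean. B230219D22Rik had 30.2 ± 2.93 and 20.4 ± 2.55 FPKM, and Dpy19l4, of a family of C-mannosyltransferases, 7.89 ± 1.31 and 4.47 ± 0.585 FPKM.

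Lower in the knockout was Gpnmb, a lysosomal glycoprotein of lipid-laden macrophages, with 7.75, 5.13, 10.6, 11.6 and 15.3 FPKM in the knockout and 22.8, 25.4, 17.5, 17.7 and 26.7 FPKM in the wild type. No knockout value reached the lowest wild type value (log2 difference -1.11 ± 0.21, limma adjusted p = 0.0399). Gpnmb was lowest in knockout replicates 1 and 2, which also had the lowest level of 26 macrophage and monocyte markers, 3.19 and 3.69 against 4.14 to 5.40 in the other 8 libraries (mean log2(FPKM + 1)). Without these libraries the Gpnmb difference was -0.84 with a limma adjusted p of 0.282, and the part of macrophage content in it was not tested. In bulk tissue, fewer cells of a type and less RNA per cell cannot be told apart. Sema6b, a transmembrane semaphorin, had 4.93 ± 1.92 and 10.4 ± 1.28 FPKM (-0.96 ± 0.19, limma adjusted p = 0.0424), and Tlnrd1, a talin rod domain protein that bundles actin, 6.92 ± 1.32 and 9.82 ± 0.854 FPKM (-0.53 ± 0.10, limma adjusted p = 0.0351).

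Small and long noncoding RNAs formed a further set of called genes, mostly lower in the knockout. The one with the smallest p was Snora24, an H/ACA small nucleolar RNA that guides pseudouridylation of ribosomal RNA. Its sequence is shown because it is short enough for its abundance to rest on few reads. It lies at mm10 chr3:123507937-123508066 on the minus strand, and the capitals mark the ACA box, 3 bases from the 3′ end, by which this class is recognised.
Snora24: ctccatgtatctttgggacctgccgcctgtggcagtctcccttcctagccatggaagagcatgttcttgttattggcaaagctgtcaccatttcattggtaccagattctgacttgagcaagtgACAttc

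Snora24 was measured at 0.716, 0.921, 1.65, 2.17 and 2.36 FPKM in the knockout and 7.36, 7.75, 5.71, 5.24 and 7.62 FPKM in the wild type, which corresponds to 7 to 23 and 50 to 76 reads. The groups did not overlap, and the log2 difference was -1.16 ± 0.15 (limma adjusted p = 0.00808, the smallest of the comparison), or -1.63 without removal of the length trend. With 130 bases, Snora24 is shorter than the centre of the shortest bin, 379 bases, and was given the trend of that bin. It was therefore not compared with genes of its own length. The gene lies within Snhg8, its host on the same strand, whose reads cannot be separated from it with certainty. Snhg8 stood at 12.7 ± 2.82 and 22.1 ± 5.43 FPKM with overlapping values (-0.33 ± 0.14, limma adjusted p = 0.317), and its retained intron transcript Snhg8-202 at 1.06 and 3.74 FPKM.

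Snhg20, another small nucleolar RNA host gene, was at 8.87 ± 2.44 FPKM in the knockout and 34.0 ± 10.7 in the wild type (-1.46 ± 0.28, limma adjusted p = 0.0351). Mir17hg, the primary transcript of the miR-17-92 cluster, was at 0.094, 0.241, 0.545, 0.570 and 0.415 FPKM in the knockout and 1.47, 1.42, 1.60, 1.86 and 2.71 FPKM in the wild type (-1.02 ± 0.21, limma adjusted p = 0.0454). The mature miRNAs of this cluster were not measured by this assay. Rpp21, a protein subunit of ribonuclease P, which matures transfer RNA, stood at 11.99 ± 1.71 and 22.0 ± 3.23 FPKM (-0.47 ± 0.09), and its retained intron transcripts Rpp21-205 at 1.86 and 5.05 FPKM and Rpp21-206 at 0.737 and 2.09 FPKM. In the opposite direction went Gm22009, a small Cajal body RNA, with 4.62 ± 1.36 and 1.58 ± 0.816 FPKM (1.62 ± 0.27, limma adjusted p = 0.0161). It was outside the rule for named genes and was picked after its values had been seen.

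The composition of the libraries, measured on values as deposited without removal of the length trend, differed as well. Small nucleolar RNA took 0.00638 ± 0.000847% of a library's FPKM in the knockout and 0.0128 ± 0.00190% in the wild type (SD, n = 5 each). Small nuclear RNA took 0.00194 ± 0.000515% and 0.00607 ± 0.00195%, and processed pseudogenes 2.29 ± 0.108% and 2.61 ± 0.119%. Fewer transcript models were above 0 as well, 79254 ± 3209 and 87001 ± 3179. In these 4 of 16 composition measures the genotypes did not overlap (exact permutation test, two-sided, p = 0.00794, adjusted p = 0.0317). Under saline, the knockout and wild type means were 0.00624% and 0.0121% for small nucleolar RNA and 0.00206% and 0.00514% for small nuclear RNA. Transcript models above 0 numbered 80339 and 86685 there, and processed pseudogenes took 2.41% and 2.46%. The part of these 4 measures in the calls of single short RNAs was not tested. Transcripts classed as miscellaneous RNA overlapped, at 0.0622 ± 0.0155% and 0.0594 ± 0.0279% (exact permutation p = 0.849).

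Gm10800, a predicted gene on chromosome 2 from 98666547 to 98667301, differed most in size, with 0 to 0.743 FPKM in the knockout and 7.92 to 68.6 FPKM in the wild type (-3.33 ± 0.52, limma adjusted p = 0.0105). It was the gene with the larger difference under saline too, -5.09 ± 0.52. Gm11808, a predicted coding gene of 504 bases, stood at 198 ± 49.2 and 434 ± 75.5 FPKM (-0.73 ± 0.13, limma adjusted p = 0.0323). Called processed pseudogenes and short genes such as Gm11808 have near-identical copies elsewhere, between which reads may be split, so their values are uncertain.

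At the level of single transcripts, 21 of 25362 passed the same test, 9 higher and 12 lower in the knockout (0.0828%, or 0.0355% higher and 0.0473% lower). Without removal of the length trend 143 passed (0.564%), and without knockout replicates 1 and 2 the count was 1. The calls included the exon 3 transcript of Rab22a and its counterpart without exon 3. Map4k1-202, annotated for nonsense-mediated decay, belongs to a kinase gene of blood cells that restrains lymphocyte receptor signals. It was at 0.0144, 0, 0.00484, 0 and 0 FPKM in the knockout and 2.14, 7.80, 5.53, 1.98 and 7.76 FPKM in the wild type (-2.35 ± 0.31, limma adjusted p = 0.00684). Under saline it was at 0.0510 and 0.475 FPKM, so the wild type AngII libraries were the high ones. The main transcript Map4k1-201 followed the lymphocyte content of the libraries, with 0.630 and 0.733 FPKM in knockout replicates 1 and 2, 5.36 to 13.4 in the other knockouts and 3.49 to 15.2 in the wild type.

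Other called transcripts were parts of abundant genes. Hnrnpdl-207, of a splicing regulator, stood at 4.88 ± 0.878 and 9.29 ± 0.607 FPKM (limma adjusted p = 0.0455), while Hnrnpdl-202 was at 9.61 and 8.76 FPKM. Mt1-202, a minor transcript of metallothionein 1, stood at 0.834 ± 0.294 and 5.32 ± 2.98 FPKM (limma adjusted p = 0.0448), while the main transcript Mt1-201 overlapped at 164 ± 54.9 and 238 ± 77.6 FPKM. Retained intron transcripts went either way. Slc43a3-206, of a nucleobase transporter gene, stood at 2.10 and 0.894 FPKM and Srrm2-207, of a splicing coactivator gene, at 2.97 and 0.977 FPKM, both higher in the knockout, and Snhg5-204, lower in the knockout, at 1.504 and 5.18 FPKM. The seipin transcript Bscl2-206 was at 1.53 ± 0.682 and 0.228 ± 0.0998 FPKM (limma adjusted p = 0.0394).

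Genes of endosomal traffic were read as a group, since Rab22a works there. Of 33 tested, 17 were higher and 16 lower in the knockout, none passed the test, and 10 had an unadjusted p under 0.05 (6 higher, 4 lower), where 7.22% and 5.75% of all genes did. The median log2 difference was 0.07, against 0.0048 for all genes, and -0.06 without removal of the length trend. Rab5a, the GTPase that defines early endosomes, stood at 40.1, 33.0, 36.6, 30.8 and 40.9 FPKM in the knockout and 24.3, 25.5, 25.3, 26.9 and 28.7 FPKM in the wild type. Those values did not overlap, yet the test was narrowly missed (0.57 ± 0.12, limma adjusted p = 0.0573). Eea1, the tether that Rab5 recruits to fuse early endosomes, did not overlap either, at 11.7 ± 1.6 and 7.51 ± 1.2 FPKM (0.35 ± 0.08, limma adjusted p = 0.073).

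Among the lower members, Rabep2, a Rab5 effector, stood at 3.68 ± 3.3 and 10.6 ± 2.9 FPKM (-1.33 ± 0.38, limma adjusted p = 0.122). Rab11b, a GTPase of recycling endosomes, was at 20.9 ± 6.0 and 31.8 ± 8.2 FPKM (-0.65 ± 0.20, limma adjusted p = 0.152). Rab31, the closest relative of Rab22a, differed by 0.16 ± 0.13, and Rab7 of late endosomes and Vps35 of the retromer by -0.05 ± 0.14 and 0.17 ± 0.10.

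**Figure D4:**
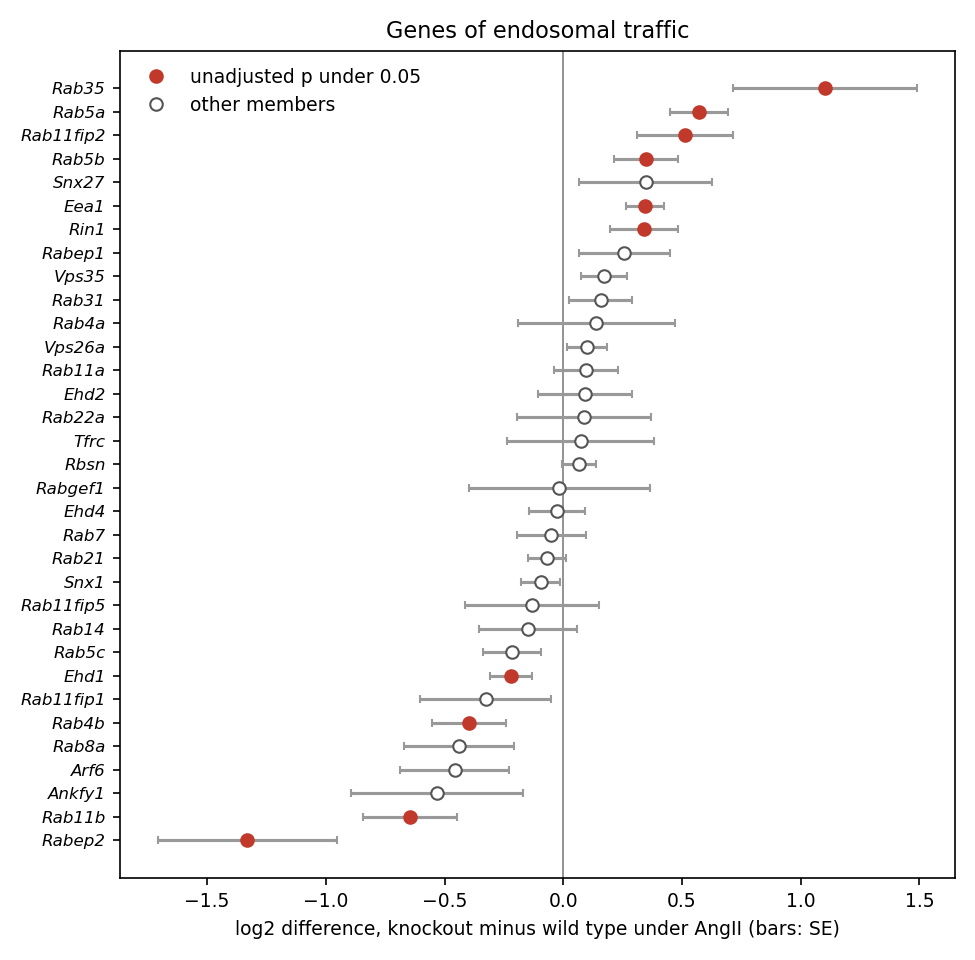
Log2 difference between knockout and wild type AngII libraries, with SE, for the 33 genes of endosomal traffic. Filled points have an unadjusted p under 0.05, 6 of them to the right (higher in the knockout) and 4 to the left, and none passed after adjustment over all genes.

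Angiotensin system genes showed no called difference. Agtr1a, the main type 1 receptor gene of mice, stood at 47.5, 3.57, 22.2, 2.97 and 26.4 FPKM in the knockout and 8.92, 10.6, 5.70, 9.87 and 11.02 FPKM in the wild type. The knockout libraries lay on both sides of all wild type libraries, and the difference was 0.66 ± 0.56 (limma adjusted p = 0.656). Agtr1b and Agt, the precursor of the hormone, were at 0.874 ± 0.444 and 1.20 ± 0.577 FPKM and at 10.1 ± 6.71 and 12.9 ± 9.67 FPKM. The converting enzyme Ace was at 75.6 ± 33 and 56.6 ± 6.8 FPKM. Over 11 genes of this list, 4 were higher and 7 lower, and 1 had an unadjusted p under 0.05. Of 27 genes of Gq signalling downstream of the receptor, 12 were higher and 15 lower, with Arrb1, an arrestin that takes the receptor into endosomes, at 10.03 ± 3.2 and 6.41 ± 2.0 FPKM (0.50 ± 0.22, limma adjusted p = 0.352).

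In the vessel wall itself, contractile and matrix genes were on average higher in the knockout without any passing. Of 23 contractile smooth muscle genes, 16 were higher, with a median of 0.22, or 0.05 without removal of the length trend. Of 47 extracellular matrix genes, 32 were higher, with a median of 0.10. The mean levels of both lists overlapped between genotypes. Under saline the medians had the other sign, -0.35 for contractile and -0.20 for matrix genes. Ccn1, a secreted matricellular protein induced by stretch, was at 37.9, 62.3, 152, 113 and 146 FPKM in the knockout and 72.3, 25.0, 20.5, 17.7 and 20.6 FPKM in the wild type. Only wild type replicate 1 reached into the knockout range (1.87 ± 0.43, limma adjusted p = 0.0651).

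Lox, which crosslinks collagen and elastin, was at 52.9 ± 18 and 25.2 ± 4.6 FPKM (0.89 ± 0.31, limma adjusted p = 0.218), and its relative Loxl2 at 0.619 ± 0.16 and 5.64 ± 4.6 FPKM (-1.80 ± 0.59, limma adjusted p = 0.182). The proteoglycan Lum had a difference of 0.88 ± 0.23 and the fibroblast protein Postn one of 0.74 ± 0.30. Genes of TGF-beta signalling were split, 8 higher and 9 lower, with the inhibitory Smad7 at -0.51 ± 0.18. Of 15 genes of nitric oxide and cGMP, 11 were higher with a median of 0.19. Pde3a, a phosphodiesterase that breaks down cyclic nucleotides in smooth muscle, did not overlap between genotypes at 12.02 ± 1.9 and 6.67 ± 0.85 FPKM (0.52 ± 0.20, limma adjusted p = 0.286). The same was true of Atp2b4, a plasma membrane calcium pump, at 19.8 ± 2.0 and 10.1 ± 3.2 FPKM (0.74 ± 0.22, limma adjusted p = 0.137).

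Stress and protein-folding genes were on average lower in the knockout. Of 28 immediate early and heat shock genes, 19 were lower (median -0.29), and Dnajb1 and Jund passed. Without knockout replicates 1 and 2, 17 were lower, with a median of -0.12. Gadd45g, a growth arrest gene, stood at 20.8 ± 5.8 and 58.3 ± 23 FPKM without overlap (-1.11 ± 0.29, limma adjusted p = 0.110), while the differences of Jun (0.42 ± 0.16) and Btg2 (1.61 ± 0.62) had the other sign. Of 25 genes of the unfolded protein response, 21 were lower (median -0.20), and also 21 without knockout replicates 1 and 2 (-0.20). The mean level of that list did not overlap between genotypes, 4.63 to 4.87 in the knockout and 4.90 to 5.32 in the wild type. It was the only one of 37 lists of which this was so. These levels keep the length trend. Genes of like length (median 2151 bases, against 2133 in the list) had a median difference of -0.17 before its removal. The part of this trend in the separation was not tested. Herpud1, of degradation at the endoplasmic reticulum, was at 17.7 ± 2.6 and 33.2 ± 9.6 FPKM (-0.65 ± 0.18, limma adjusted p = 0.113). Of the 4 that were higher, the chaperone gene Hyou1 differed most, with 18.8, 18.8, 17.4, 22.9 and 20.6 FPKM in the knockout against 9.38, 7.92, 8.65, 15.5 and 10.8 FPKM in the wild type (0.88 ± 0.20, limma adjusted p = 0.0687).

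Of 26 genes of SR and splicing factors, 21 were lower in the knockout (median -0.26), or 18 without knockout replicates 1 and 2 (-0.16). Srsf9, an SR protein, stood at 5.22, 6.63, 6.46, 7.50 and 7.71 FPKM in the knockout and 25.7, 30.9, 25.6, 21.8 and 29.5 FPKM in the wild type. Despite the wide separation it missed the threshold (-1.57 ± 0.35, limma adjusted p = 0.0574), and its saline means were 8.99 and 14.95 FPKM. Clk1, a kinase of SR proteins, was at 26.0 ± 7.1 and 45.4 ± 5.0 FPKM (-0.62 ± 0.17, limma adjusted p = 0.117). Of 36 cytosolic ribosomal protein genes, 33 were lower (median -0.32), with Rps19 at 216 ± 70.4 and 519 ± 107 FPKM (-0.95 ± 0.23, limma adjusted p = 0.0816). These genes are short, with a median length of 835 bases, and without removal of the length trend their median was -0.64. Without knockout replicates 1 and 2 it was -0.13. In the circadian clock, Clock passed, and Per1, a repressor that Clock activates, was at 3.98 ± 1.6 and 11.3 ± 5.6 FPKM without overlap (-1.33 ± 0.35, limma adjusted p = 0.110).

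Lymphocyte lists had the largest median differences of all lists, and their levels were uneven among knockout libraries. All 27 T and NK cell genes tested were lower in the knockout (median -1.34), as were 20 of 21 B and plasma cell genes (-1.59), and none passed. Cd3e, a subunit of the T cell receptor complex, stood at 0.576, 0.418, 10.04, 24.5 and 4.18 FPKM in the knockout and 11.2, 21.5, 15.3, 15.5 and 26.4 FPKM in the wild type. Cd79a, of the B cell receptor, stood at 1.59, 1.32, 26.2, 54.1 and 18.4 FPKM and at 39.6, 63.1, 64.2, 66.6 and 93.7 FPKM. Knockout replicates 1 and 2 accounted for the lowest values and replicate 4 lay within the wild type range in both genes. Summed over the T and NK cell genes, the FPKM was 18.4 and 14.3 in knockout replicates 1 and 2, 119 to 566 in the other knockouts and 282 to 574 in the wild type, and 1 and 2 of the 27 genes were at 0 in those 2 libraries. Summed over the B and plasma cell genes it was 24.5 and 36.4, 536 to 2239 and 1183 to 2907. Without these 2 libraries the medians were -0.30 and -0.31.

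Of the 26 macrophage and monocyte genes, 21 were lower (median -0.35), or 16 without knockout replicates 1 and 2 (-0.10). Csf1r, the receptor for macrophage growth factor, was at 28.7 ± 14 and 51.3 ± 14 FPKM (-0.98 ± 0.40, limma adjusted p = 0.313). Inflammatory cytokines and adhesion molecules were lower in 19 of 24 and cell cycle genes in 28 of 31, with medians of -0.35 and -0.45. Without those 2 libraries the medians were -0.03 and -0.18. The interferon list was split, 14 higher and 17 lower.

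**Figure D5:**
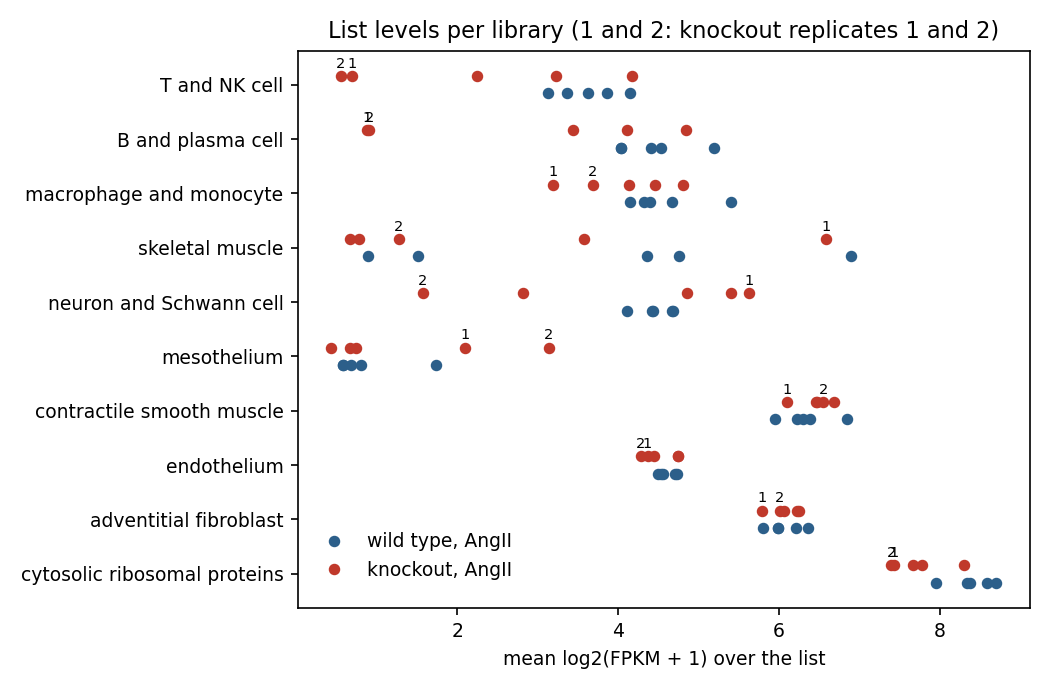
Mean log2(FPKM + 1) of 10 gene lists in each of the 5 wild type (blue) and 5 knockout (red) AngII libraries, with knockout replicates 1 and 2 numbered. These 2 libraries are far below all others in T, NK, B and plasma cell genes and above all others in mesothelial genes, while the smooth muscle, endothelial and fibroblast lists overlap between genotypes.

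Transcripts of tissue around the aorta varied from library to library within each genotype. Skeletal muscle genes spanned list levels of 0.67 to 6.58 in the knockout and 0.89 to 6.89 in the wild type, highest in knockout replicate 1 and wild type replicate 2. Neuron and Schwann cell genes spanned 1.57 to 5.63 and 4.11 to 4.68, and mesothelial genes 0.43 to 3.14 and 0.58 to 1.73. Endothelial and adventitial fibroblast lists were even, with medians of -0.01 and 0.10 and 0 calls. The part of these tissues in the called genes was not tested beyond the fits given in the closing section.

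Genes of energy metabolism did not separate the genotypes. Of 35 oxidative phosphorylation genes, 23 were higher with a median of 0.09, which became -0.16 without removal of the length trend and -0.20 without knockout replicates 1 and 2. Fatty acid oxidation, 18 of 25 higher with a median of 0.03, turned in the same fits to -0.09 and -0.18. No gene of either list had an unadjusted p under 0.05. Among fat genes, leptin, Lep, the hormone of white adipocytes, stood at 20.7, 19.5, 28.1, 29.1 and 32.2 FPKM in the knockout and 13.2, 10.6, 13.4, 13.1 and 13.6 FPKM in the wild type. All knockout values were above all wild type values (0.99 ± 0.35, limma adjusted p = 0.228), while the white adipocyte list as a whole had a median of 0.03, with 12 of 20 higher.

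Finally, the same genes were read in the saline libraries, which are other libraries than those of the AngII groups. The 33 had been called by a fit of all 20 libraries, which took its spread from the saline libraries too. The saline values are therefore not a fully separate check. Under saline, 2 genes passed (0.0133%), Gm10800 and 6720427I07Rik, both of which had also passed under AngII. Of the 33 called genes, 30 had the same sign there. The share of all genes with the same sign was not counted, so this number has nothing to be read against. Knockout libraries of both treatments included some with low lymphocyte levels. Rpp21 differed by the same amount under both treatments, -0.47 ± 0.09 each, and Snora24 by -0.80 ± 0.15 and Manea by 0.48 ± 0.09 under saline. Other genes had little or no difference under saline, among them Hoxc6 at -0.05 ± 0.15, Gk5 at 0.01 ± 0.15 and Fyco1. The difference between the treatments itself passed in 0 genes by limma and 0 by limma-voom, with 534 genes (3.56%) at an unadjusted p under 0.05 and a smallest adjusted p of 0.996. An effect under AngII alone is therefore not shown for any single gene.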

How the data were processed

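Total RNA of mouse abdominal aorta, depleted of ribosomal RNA, was sequenced in 20 libraries. The authors deposited 1 table per library, read here as FPKM because the values, multiplied by transcript length, came in whole steps for 99.4% to 99.5% of low transcripts (within 0.1 read). The build was mm10 and limma was used, per the submitters' processing notes. The aligner, the assembler, the counter and the use of strand in counting were not stated in those notes or in the labels. Of 110082 Ensembl transcripts, 109913 matched GENCODE M21 and were summed per gene, and 16637 unannotated models were left out. The 15010 genes that reached 1 FPKM in 5 or more libraries entered the tests.

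All 20 libraries were fitted together with limma 3.58.1 in R 4.3.3 (trend and robust) on log2(FPKM + 1), after the trend on transcript length (20 bins) had been removed from each library. Genes beyond the centre of the first or last bin (379 and 7646 bases) were given the trend of that bin. Fold changes on the log2(FPKM + 1) scale understate those of low genes. P-values are two-sided and Benjamini-Hochberg adjusted, with calls under 0.05. The median tested gene had about 1303 reads per library, and limma saw only the spread between libraries, without a model of counting error. Single measures were compared by exact permutation over 252 arrangements. The labels number the replicates without saying whether each is 1 animal, so p-values measure only the spread between these samples, which may be technical. Figures and exact tests used Python 3.11.15 with scipy 1.17.1 and matplotlib 3.10.9. The fitting scripts were tested on simulated data.

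Named genes are Rab22a, Agtr1a, Agtr1b, Agt, the 8 largest called increases and decreases with a symbol that is no predicted locus, the 10 protein-coding genes per direction with the smallest p among those of at least 5 FPKM whose genotypes do not overlap, and up to 4 members of each list with the smallest p. The gene lists and comparisons were chosen with earlier results of these data known. Other list members and transcripts are named as examples chosen after their values were seen.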

Additional observations from a re-analysis of the deposited data

Results flagged for a closer look

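In 11 of 166 sets of 5 libraries examined, 1 library stood far from the other 4 of its group by Dixon's criterion, which chance alone meets in about 1 of 20 sets. Prkcsh was at 26.0 FPKM in knockout replicate 4, against 10.9 to 14.4 in the other knockouts. Gm10800 was at 68.6 FPKM in wild type replicate 3, against 7.92 to 13.5. The Rab22a sum was 2.65 FPKM in wild type replicate 2, against 7.99 to 10.1.

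Of the list levels, TGF-beta signalling was at 3.56 in knockout replicate 1 (others 4.06 to 4.23), the cell cycle at 3.06 in wild type replicate 5 (1.64 to 1.92) and mesothelium at 1.73 in wild type replicate 2 (0.58 to 0.80). Transcript models above 0 numbered 92523 in wild type replicate 3 (84713 to 86511 in the others), where antisense transcripts took 0.190% of FPKM (0.151% to 0.160%). Long intergenic RNA took 0.193% in knockout replicate 2 (0.240% to 0.254%) and 0.610% in wild type replicate 5 (0.234% to 0.278%). In wild type replicate 5 the 50 largest genes took 20.01% of FPKM (23.6% to 24.7%). No cause was tested for these values.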

How the results depend on the processing

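The count of 33 called genes became 275 without removal of the length trend, 378 with median centring in place of that step, 57 with quantile normalization, 652 with library weights, 127 without the filter, 99 with adipocyte and muscle covariates, 165 with limma-voom on recovered reads and no length step, 4 with the 10 AngII libraries alone, and 6 to 96 with 1 library left out (6 without wild type replicate 2, 96 without wild type replicate 3, 64 without knockout replicate 4). The sets so called overlapped the 33 to differing degrees. Only 1 of the 4 genes from the AngII libraries alone was among the 33. So were 17 of the 127 without the filter and 21 of the 165 with limma-voom. All 33 were among the 652, and 26 among the 275. Chosen after the data were seen, lymphocyte covariates gave 91 and protein-coding genes alone 20. Leaving out knockout replicates 1 and 2, also chosen then, gave 0, as did limma-voom without them. The 21 called transcripts became 143 without the length step, 7 with a pseudocount of 0.1, 6 with the AngII libraries alone, 1 without knockout replicates 1 and 2, and 4 to 72 with 1 library left out. Replicate numbers did not pair the samples (correlations of deviations from -0.20 to 0.12), and a block for them left 10 genes, 9 of them among the 33, and 7 transcripts. The interaction passed no gene in any fit.

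Median list differences moved beyond the spread between libraries without the length step (unfolded protein response -0.34), with median centring in place of the length step (Gq signalling 0.13, nitric oxide and cGMP 0.37, circadian clock 0.16), with a pseudocount of 0.1 (nitric oxide and cGMP 0.33), and without knockout replicates 1 and 2 (circadian clock -0.11, T and NK cells -0.30, B and plasma cells -0.31, mesothelium -0.23). With 1 library left out, the median of nuclear and imprinted noncoding RNA ranged from -0.16 to 0.32 (0.32 without wild type replicate 2), and these composition differences (knockout minus wild type) crossed the threshold at least once: small nuclear RNA (-0.00462 to -0.00345%), processed pseudogenes (-0.356 to -0.273%), protein-coding share (-2.28 to -1.60%), the 50 largest genes (2.41 to 5.03%) and length slope (0.153 to 0.197). No called direction was reversed. Gene values below about 100 reads, as for Snora24 and Gm22009, are limited by depth.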

Other observations

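Zinc finger genes near Rab22a were looked at after Zfp971 had been seen among the calls. Of 66 other genes tested within 5 Mb of Rab22a, 38 were higher and 28 lower in the knockout under AngII, 1 passed, and 15 higher against 5 lower had an unadjusted p under 0.05. Their median log2 difference was 0.18, or -0.04 without removal of the length trend. Next to Zfp971 by p were Gm2026 at 1.60 and 0.866 FPKM, Gm14325 at 20.7 and 13.1 FPKM, and Zfp973 at 4.92 and 2.25 FPKM (limma adjusted p = 0.0574 each). These belong to a cluster of similar genes on distal chromosome 2, among which reads may be split. Zfp genes elsewhere in the genome were mostly higher too, 211 of 313, with 62 higher and 5 lower at an unadjusted p under 0.05 and a median of 0.11 (0.08 without the length step).

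The mitochondrial gene mt-Cytb, a subunit of respiratory complex III, was listed at 8049 and 8949 FPKM in wild type replicates 1 and 2 and at 1.95 to 3.12 FPKM in the other wild type AngII libraries. It was at 0.67 to 1.86 FPKM in the knockout AngII libraries (limma adjusted p = 0.271), so the difference of means came from 2 libraries.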
